A study of Mus musculus with 6 samples.

Results

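The genes of retinol transport and retinoid metabolism examined here were Rbp4 and 8 others: Ttr, Stra6, Crabp1, Crabp2, Aldh1a1, Aldh1a2, Rarb and Cyp26b1. Rbp4 was selected on its higher value in Prox1-OE pancreas, so its own difference is a description. The other 8 were named for their roles, with results of these arrays known, to ask whether the rise of Rbp4 went with other genes of retinoid transport, synthesis or response. Every probe set whose single gene symbol was that of a member was taken, which gave 12 probe sets of 34945 and 9 genes of 18193. Ttr had 4 probe sets and each other member 1.

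Expression was measured on 6 arrays of whole pancreas from NMRI mice at postnatal day 15. The 3 Prox1-OE samples carried Jojo-Prox1 together with Ngn3-cre, and the 3 controls carried Ngn3-cre without Jojo-Prox1, so that the Cre driver was shared by all 6. Ngn3-cre is active in the progenitors of the endocrine cells, while whole pancreas is mostly exocrine tissue, and each value averages all its cell types. In such bulk tissue, fewer cells of a type and less RNA per cell cannot be told apart. The labels give no animal or litter for any sample. P-values and intervals therefore cover the spread between these samples, which may be technical.

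Retinol (vitamin A) leaves the liver bound to Rbp4, which travels in blood in a complex with transthyretin, the product of Ttr. Stra6 is the cell surface receptor that takes retinol from Rbp4. Inside cells retinol is oxidized to retinal and then by retinal dehydrogenases, among them Aldh1a1 and Aldh1a2, to retinoic acid. Crabp1 and Crabp2 carry retinoic acid in the cytoplasm, Rarb is a nuclear receptor for it, and Cyp26b1 breaks it down. Retinoic acid made by the mesenchyme and mesothelium around the early pancreas is known for its part in pancreas formation, and Rbp4 transcripts are known from liver, fat and islet delta cells.

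Promoter sequence near the gene starts was searched for motifs that retinoic acid receptors bind. Retinoic acid receptors bind direct repeats of a core motif of 6 bases, here AGGTCA or AGTTCA or GGTTCA or GGGTCA, spaced by 1, 2 or 5 bases. The 250 bases before each start in RefSeq (GRCm38.p6) were searched on both strands. All members but Ttr and Crabp2, 7 of the 9, had a window there, 12 windows in all. Of these windows 1 held such a repeat, that of Rarb, against 0.426% of the 32851 windows of all genes. It was spaced by 5 bases, from 53 to 37 bases before the start, a form found in 0.0883% of all windows. The window of Rarb (chr14:16575477-16575726, minus strand) is shown with the core motifs of the repeat in capitals, beside that upstream of Rbp4 (chr19:38125322-38125571, minus strand), which had no repeat. Both are written 5′ to 3′ along the gene.
Rarb: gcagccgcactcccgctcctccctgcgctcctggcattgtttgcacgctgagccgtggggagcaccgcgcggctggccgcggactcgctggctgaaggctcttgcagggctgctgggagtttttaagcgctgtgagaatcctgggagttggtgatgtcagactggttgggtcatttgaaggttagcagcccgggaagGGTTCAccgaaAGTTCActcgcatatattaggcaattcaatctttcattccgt
Rbp4: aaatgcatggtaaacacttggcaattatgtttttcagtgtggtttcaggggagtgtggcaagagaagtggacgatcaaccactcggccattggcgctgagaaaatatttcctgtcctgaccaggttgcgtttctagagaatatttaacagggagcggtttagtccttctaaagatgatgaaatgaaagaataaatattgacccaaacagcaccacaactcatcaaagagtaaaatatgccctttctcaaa
The match describes letters in these windows and shows no binding. Rarb was named as a member for its role, so its repeat is a description and no finding about the members as a set. The count was not tested against the share of all windows. Sequence farther from the starts was not searched, so a window without a repeat does not show that a gene fails to respond. The window of Rbp4 shown held 1 core motif alone, on the reverse strand, which 38.6% of all windows had at least once. Its other window, before a start farther into the gene (chr19:38124812-38125061), had neither a repeat nor a core motif. Which of these starts is used in pancreas was not examined.

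The values of the 6 arrays had medians from 4.38 to 4.42 on the log2 scale, and correlations between arrays ran from 0.987 to 0.994. Acinar genes marked the tissue as labelled, with Cela3b, a pancreatic elastase, at 14.79 in Prox1-OE and 14.89 in control. Prox1 itself read 5.30, 4.98 and 5.31 on the Prox1-OE arrays and 5.61, 4.90 and 4.90 in control (brightest of 3 probe sets, log2 difference 0.06 ± 0.20 SE). These groups overlapped. The sequences of its probes and of the transgene were not examined, so whether the probes read the transgene was not tested. These values therefore do not check the labels. Prox1-OE replicate 1 stood apart from the other arrays by its immune cell genes: 5 B cell genes averaged 1.67 above their control means there, against 0.34 on replicate 2 and 0.58 on replicate 3. On replicate 1 this mean rested mostly on Ms4a1 (7.80, control mean 4.05), Ighm (8.85, control mean 6.16) and Cd79b (5.15, control mean 3.60). Cd79a (4.07, control mean 3.94) and Cr2 (3.73, control mean 3.50) were nearer their control means on that array. Results for Rbp4 are therefore also given without that array.

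Rbp4 was higher in Prox1-OE pancreas. Its probe set (1426225_at) read 8.72, 8.41 and 8.30 on Prox1-OE replicates 1, 2 and 3 and 7.24, 6.92 and 6.97 on control replicates 1, 2 and 3. The lowest Prox1-OE array thus lay above the highest control array, and replicate 1 was the highest array in both groups. The means were 8.48 ± 0.22 (SD, n = 3) and 7.05 ± 0.17, a log2 difference of 1.43 ± 0.14 (SE, 95% interval 1.11 to 1.75), or 2.70-fold. By size this was the difference ranked 17 among the higher genes of 18193, and its rank ran from 8 without Prox1-OE replicate 1 to 33 without Prox1-OE replicate 2. Without Prox1-OE replicate 1 the difference was 1.31 ± 0.13, and without any other single array it was 1.37 to 1.53.

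Over all genes, 4 were called higher and 1 lower at a limma adjusted p under 0.05, which is 0.0275% of the 18193, and Rbp4 (adjusted p = 0.0247) was among them by the way it was chosen. In the fit of every probe set, 0.0114% of 34945 were called, Rbp4 again included (limma adjusted p = 0.0314). The call did not last without any single array: its limma adjusted p was 0.0947 without Prox1-OE replicate 1, 0.0943 without replicate 2 and 0.157 without replicate 3, and 0.0700, 0.193 and 0.122 without control replicates 1, 2 and 3.

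**Figure D1:**
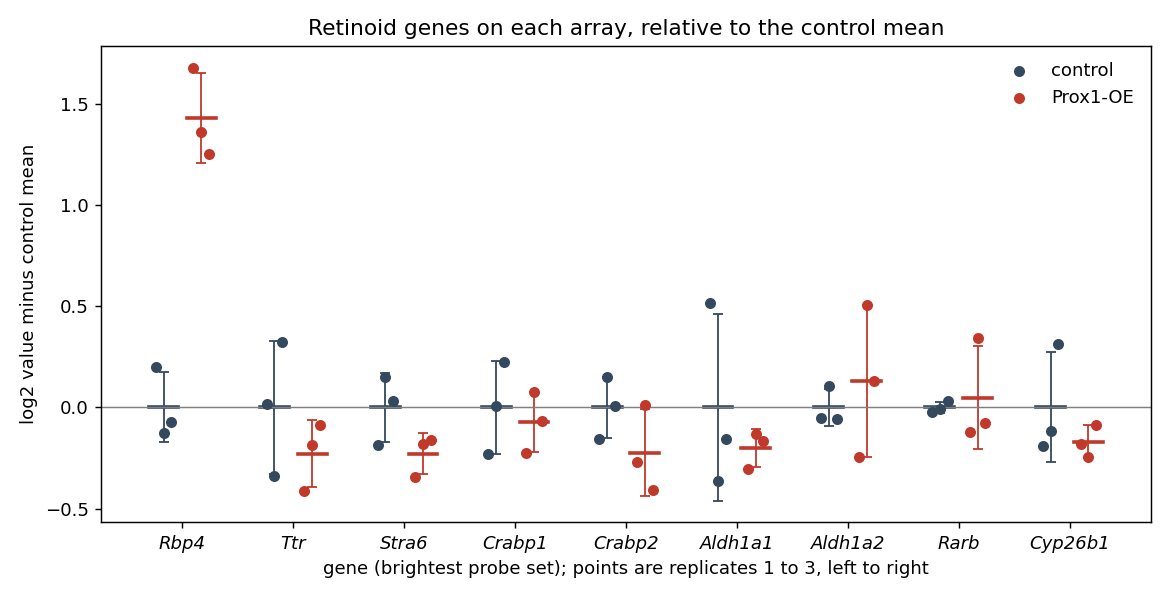
Values of the 9 genes on each array as the log2 value minus the control mean, with points for replicates, bars for means and error bars for SD (n = 3). Rbp4 is 1.25 to 1.68 above the control mean on the 3 Prox1-OE arrays, while in each of the other 8 genes the groups overlap.

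Ttr, whose product holds Rbp4 in blood and which islets also express, had a negative difference on all 4 probe sets. Its brightest probe set (1459737_s_at) read 11.18, 11.41 and 11.50 in Prox1-OE and 11.61, 11.25 and 11.91 in control. The difference was -0.23 ± 0.17 (95% interval -0.62 to 0.16), and control replicate 2 lay among the Prox1-OE arrays. It was -0.40 without control replicate 2, -0.07 without control replicate 3 and -0.14 without Prox1-OE replicate 1. The other probe sets of Ttr differed by -0.24 (1454608_x_at), -0.17 (1455913_x_at) and -0.23 (1451580_a_at). All 4 were lowest in control on replicate 2 and highest on replicate 3, so the spread within the control group was common to the probe sets. The suffixes mark probe sets that can bind more than a single transcript, and the 4 do not count as separate measurements of the condition.

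Gcg, the glucagon gene of alpha cells, which are known to express Ttr, read 12.41, 12.63 and 12.65 in Prox1-OE and 12.86, 12.53 and 11.91 in control. Control replicate 3, the highest array for Ttr, was thus the lowest for Gcg. Relative to control, it also had the lowest control mean of the delta (-0.21), alpha (-0.32) and beta cell genes (-0.27) described below. For the PP cell genes its mean was 0.04, and control replicate 2 was the lowest control (-0.16). The difference of Gcg was 0.13 ± 0.22 (limma adjusted p = 0.931).

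**Figure D2:**
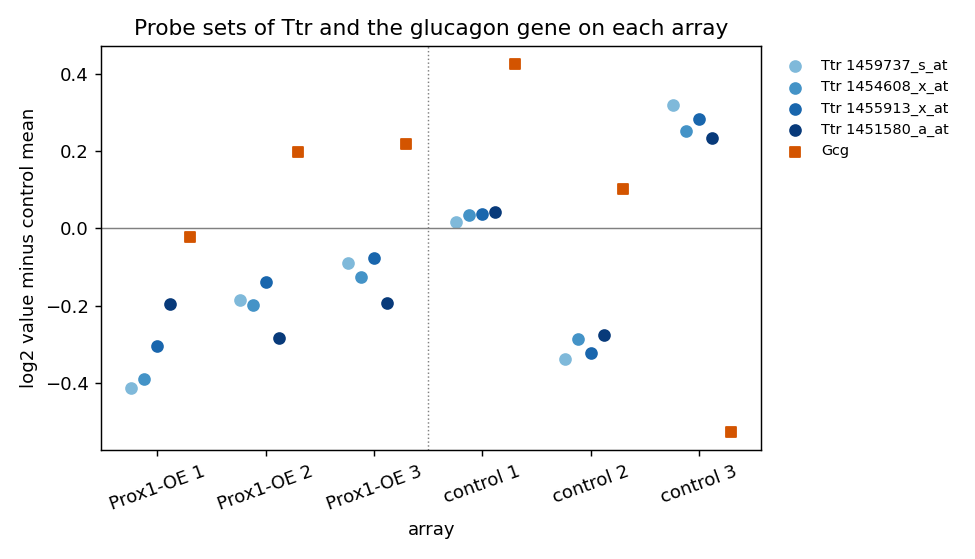
The 4 probe sets of Ttr (circles) and Gcg (squares) on each array, as the log2 value minus the control mean of that probe set. Control replicate 3 is the highest array for each probe set of Ttr and the lowest for Gcg (11.91, against 12.43 as the control mean).

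Stra6, the receptor for Rbp4, read 3.97, 4.13 and 4.15 in Prox1-OE and 4.13, 4.46 and 4.35 in control. These values lay below the medians of the arrays on 5 of the 6 arrays, where RMA compresses differences, so a change of Stra6 could be hidden. The log2 difference was -0.23 ± 0.11 (95% interval -0.48 to 0.03), and the lowest control array lay just below the highest Prox1-OE arrays. It was -0.15 without control replicate 2.

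The carriers of retinoic acid were dim as well. Crabp1 read 2.91, 3.21 and 3.07 in Prox1-OE and 2.90, 3.14 and 3.36 in control (log2 difference -0.07 ± 0.14, 95% interval -0.38 to 0.24), at percentile 7.01 of all genes by level. Crabp2, which delivers retinoic acid to its receptors in the nucleus, read 3.86, 4.14 and 3.72 in Prox1-OE and 3.97, 4.28 and 4.13 in control. Its difference was -0.22 ± 0.13 (95% interval -0.53 to 0.08). Crabp1 ran from -0.19 without control replicate 1 to 0.04 without control replicate 3, and was 0.00 without Prox1-OE replicate 1. Crabp2 ran from -0.34 without Prox1-OE replicate 2 to -0.13 without Prox1-OE replicate 3. Both carriers had overlapping groups. A change could be hidden at levels this near background.

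Of the retinal dehydrogenases, Aldh1a1 was bright and Aldh1a2 of middle level. Aldh1a1 read 9.78, 9.96 and 9.92 in Prox1-OE and 10.61, 9.73 and 9.93 in control, so control replicate 1 set the control mean apart. The log2 difference was -0.20 ± 0.21 (95% interval -0.67 to 0.27) and 0.06 without control replicate 1. Aldh1a7, a close relative of Aldh1a1 whose transcripts its probes may share, read 10.11, 10.31 and 10.30 in Prox1-OE and 10.18, 10.50 and 10.24 in control. It was not raised on control replicate 1.

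Aldh1a2, the main enzyme of retinoic acid synthesis in the embryo, read 5.55, 6.30 and 5.92 in Prox1-OE and 5.74, 5.90 and 5.74 in control. The log2 difference was 0.13 ± 0.17 (95% interval -0.27 to 0.53), and -0.06 without Prox1-OE replicate 2. Adjusted for B cell genes (their mean on each array as a covariate) it was 0.56 ± 0.15 (limma adjusted p = 0.999). That mean was higher on every Prox1-OE array than on any control array. The covariate and the group therefore cannot be fully told apart, here and below. The Prox1-OE arrays spanned a wider range than the controls, with the highest and the lowest of the 6 arrays among them.

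Rarb, the receptor whose window carries the repeat shown above, was not raised as a group. It read 4.40, 4.87 and 4.45 in Prox1-OE and 4.50, 4.52 and 4.55 in control, a log2 difference of 0.05 ± 0.13 (95% interval -0.25 to 0.35). As for Aldh1a2, Prox1-OE replicate 2 was the highest of the 6 arrays and Prox1-OE replicate 1 the lowest, and the difference turned to -0.10 without replicate 2. Rarb lay at percentile 39.3 of all genes by level, close to the array medians.

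Cyp26b1, which removes retinoic acid and which retinoic acid induces in many tissues, read 5.34, 5.28 and 5.44 in Prox1-OE and 5.33, 5.40 and 5.83 in control. The log2 difference was -0.17 ± 0.14 (95% interval -0.49 to 0.15), and control replicate 3 alone was above all Prox1-OE arrays. Without that array the difference was -0.01, and without control replicate 1 it was -0.27.

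None of the 8 genes beside Rbp4 was called in the limma fit over all genes (adjusted p from 0.764 to 0.964, against 0.0275% of all genes called), and 0 of them had an unadjusted p under 0.05, where 6.65% of all genes did. Their groups overlapped in all 8, while 12.1% of all genes had groups that did not overlap. Of the 8, 6 had a negative difference and 2 a positive one. Their median was -0.19, beside -0.01 over all genes, and was -0.04 without control replicate 3. No upper bound of their 95% intervals exceeded 0.53, that of Aldh1a2. The lowest lower bound was -0.67, that of Aldh1a1. A difference as large as that of Rbp4 lay outside each of these intervals, though for the dim genes Crabp1, Crabp2, Stra6 and Rarb the interval holds for the compressed scale.

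The rest of the pathway was described by 53 further retinoid genes, of which 49 were measured by a named probe set. In the limma fit 0 of the 49 were called in either direction (adjusted p from 0.750 to 0.998), and 1, Rdh1, had an unadjusted p under 0.05, beside 6.65% of all genes. The groups did not overlap for 1 gene that was higher and 4 that were lower in Prox1-OE, beside 12.1% of all genes in either direction. The median difference was -0.02, and the 49 ran from -0.24 (Meis2) to 0.36 (Tgm2). By level, 21 of the 49 were above the median of all genes.

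**Figure D3:**
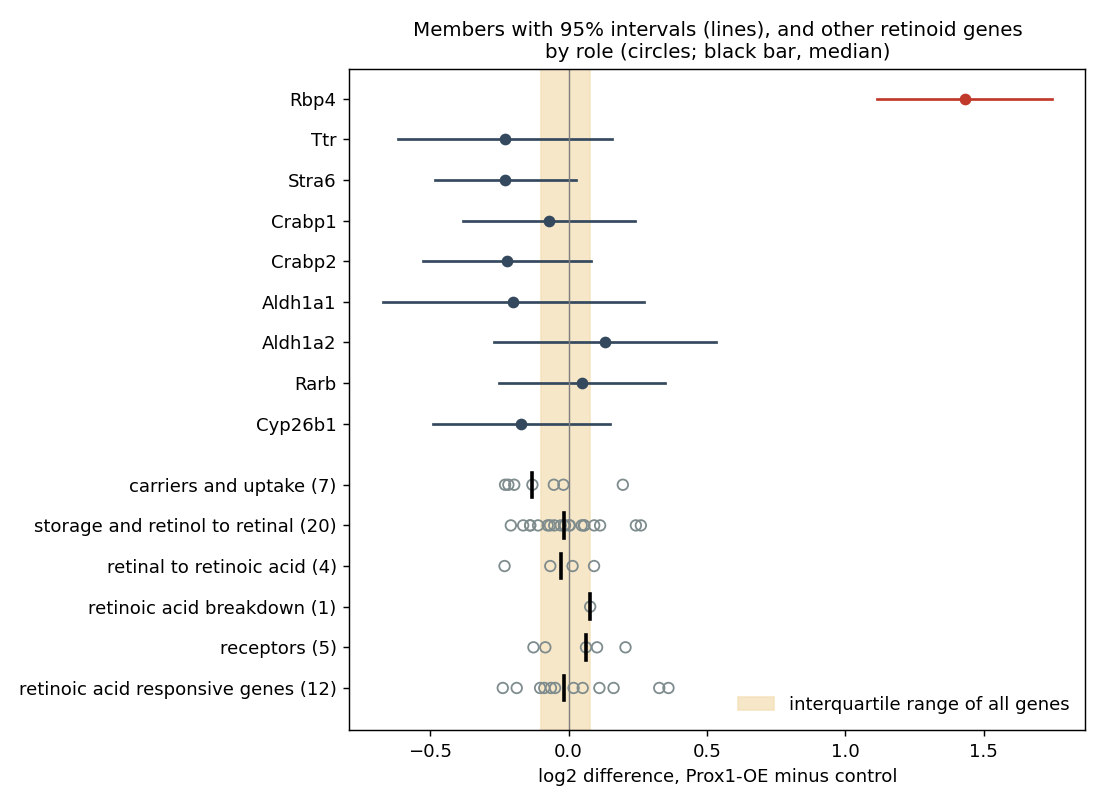
Log2 differences, Prox1-OE minus control, of the 9 members with 95% intervals from limma, and of 49 other retinoid genes as circles by role, with the median of each role as a black bar and the interquartile range of all genes (-0.10 to 0.08) shaded. Rbp4 stands at 1.43 and the other 57 genes lie between -0.24 and 0.36.

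Among 7 other genes of retinoid carriage and uptake, 6 had a negative difference, with a median of -0.13. Fabp5, a fatty acid binding protein that also binds retinoic acid, differed by -0.20 ± 0.10 (9.84 in Prox1-OE and 10.04 in control). Scarb1, a scavenger receptor that takes up carotenoids, differed by -0.22 ± 0.16. Stra6l, a second receptor for Rbp4, was the 1 positive gene (0.20 ± 0.19) at a dim level.

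The 20 genes of retinol storage and its exchange with retinal had a median of -0.01, with 9 positive and 11 negative. Rdh1, a retinol dehydrogenase, differed by -0.21 ± 0.09 (3.14 and 3.35, with no overlap) at a level near background. Rdh11, a retinal reductase, differed by 0.24 ± 0.13 by its brightest probe set and by 0.06 as the mean of its probe sets. Lrat, which esterifies retinol for storage in stellate cells, differed by 0.00 ± 0.14, and Rdh10, which makes retinal from retinol, by 0.06 ± 0.12. Dhrs3, a retinal reductase that retinoic acid induces, differed by -0.11 ± 0.11.

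Of the 4 other genes listed under the step from retinal to retinoic acid, Aldh8a1 differed by -0.23 ± 0.12 and Aox1, an aldehyde oxidase, by 0.09 ± 0.12. Cyp26a1, a relative of Cyp26b1 and a classic target of retinoic acid, differed by 0.08 ± 0.13 at a dim 3.85 in Prox1-OE and 3.77 in control. The 5 other receptors had a median of 0.06. Rxrg differed by 0.21 ± 0.16 and Rara by -0.13 ± 0.13, and for Rxrb, at 7.20 and 7.14, the groups did not overlap though the difference was 0.06 ± 0.08.

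The 12 genes known to respond to retinoic acid split evenly, with 6 positive and 6 negative and a median of -0.02. Tgm2, a transglutaminase, read 8.79, 8.28 and 8.49 in Prox1-OE and 8.34, 8.26 and 7.88 in control, with a difference of 0.36 ± 0.16 (limma adjusted p = 0.753). Adjusted for B cell genes it was 0.04 ± 0.19, with the limit that this covariate goes with the group. Meis2, a homeobox factor, read 8.18, 7.88 and 8.17 in Prox1-OE and 8.34, 8.21 and 8.39 in control. Its groups did not overlap (-0.24 ± 0.11, limma adjusted p = 0.761), but another probe set of the gene, specific to 1 transcript, gave -0.01.

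Because Rbp4 is made by several cell types, genes that mark them were set beside it. Over 12 lists, 0 of 60 measured marker genes were called in the limma fit, and 12 had an unadjusted p under 0.05, beside 0.0275% and 6.65% of all genes. In delta cells, Sst (somatostatin) read 8.82, 8.51 and 8.87 in Prox1-OE and 9.15, 8.54 and 7.93 in control, and Hhex, their transcription factor, read 7.56, 7.23 and 7.43 against 7.61, 7.22 and 7.25. Sst differed by 0.19 ± 0.27 and Hhex by 0.05 ± 0.14, and the groups overlapped for both. Of the other delta cell genes, Ghsr differed by 0.02 ± 0.12, at percentile 2.95 of all genes by level. Lepr, the leptin receptor, differed by 0.69 ± 0.35 (limma adjusted p = 0.766).

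Ppy, the pancreatic polypeptide gene of PP cells, was higher on all 3 Prox1-OE arrays (9.99, 8.64 and 8.24) than in control (7.71, 7.52 and 7.75). It differed by 1.29 ± 0.38 (limma adjusted p = 0.690) and Pyy, which PP cells also make, by 0.22 ± 0.17. As with Rbp4 the highest array was Prox1-OE replicate 1. The 6 beta cell genes averaged -0.86 to -0.41 relative to control in Prox1-OE and -0.27 to 0.21 within control. They were not uniform. The groups did not overlap for G6pc2 (-1.40), Slc2a2 (-1.23) and Nkx6-1 (-0.67), and overlapped for Pdx1 (-0.22), Ins2 (-0.18) and Iapp (-0.15). The means of the 3 alpha cell genes were -0.16 to 0.03 in Prox1-OE and -0.32 to 0.23 in control.

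Among 7 genes of hepatocytes, which make most Rbp4 of the blood, Ahsg, a plasma glycoprotein, read 5.04, 6.15 and 4.39 in Prox1-OE and 4.20, 4.11 and 3.66 in control, with no overlap (1.20 ± 0.38, limma adjusted p = 0.690). Prox1-OE replicate 2 was the highest array there, and replicate 1 for Rbp4. Of the 7, 6 had a positive difference. The 1 negative gene was Alb, albumin (5.31, 5.66 and 5.49 against 5.97, 5.51 and 5.77, a difference of -0.26 ± 0.14). Apoa1, an apolipoprotein, differed by 0.33 ± 0.13, and the median of the 7 was 0.05. By level, 1 of the 7 was above the median of all genes, and differences of dim genes are compressed. Adipoq, the adiponectin gene of fat cells, read 5.62, 5.87 and 3.57 in Prox1-OE and 4.55, 4.53 and 3.36 in control. Its lowest Prox1-OE array was replicate 3, which was also the lowest Prox1-OE array for Rbp4 (1.25 above the control mean). Fabp4, a fatty acid carrier of fat cells, differed by 0.24 ± 0.28.

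Of the macrophage genes 6 of 7, and of the B cell genes 4 of 5, had a positive difference, with C1qa (-0.13) and Cd79a (-0.07) negative, and none was called (lowest limma adjusted p = 0.690). The 7 macrophage genes averaged 0.82, 0.31 and 0.29 above control in Prox1-OE replicates 1, 2 and 3, and -0.13 to 0.14 within control. The mean of the B cell genes was -0.07 to 0.12 on the controls. With the B cell mean as a covariate the difference of Rbp4 was 1.16 ± 0.16 (limma adjusted p = 0.497, with 0 genes called in all). Since this mean goes with the group, the part of B cells in the change of these values was not tested. The means of the 7 fibroblast and stellate genes were -0.01 to 0.42 in Prox1-OE and -0.16 to 0.18 in control, those of the 3 ductal genes -0.25 to -0.02 and -0.04 to 0.05, and those of the 6 acinar genes -0.09 to -0.03 and -0.02 to 0.05. Mesothelial genes spread most within control (-0.62, 0.09 and 0.54), against 0.10 to 0.24 in Prox1-OE. The part of any of these cell types in the value of Rbp4 was not tested.

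**Figure D4:**
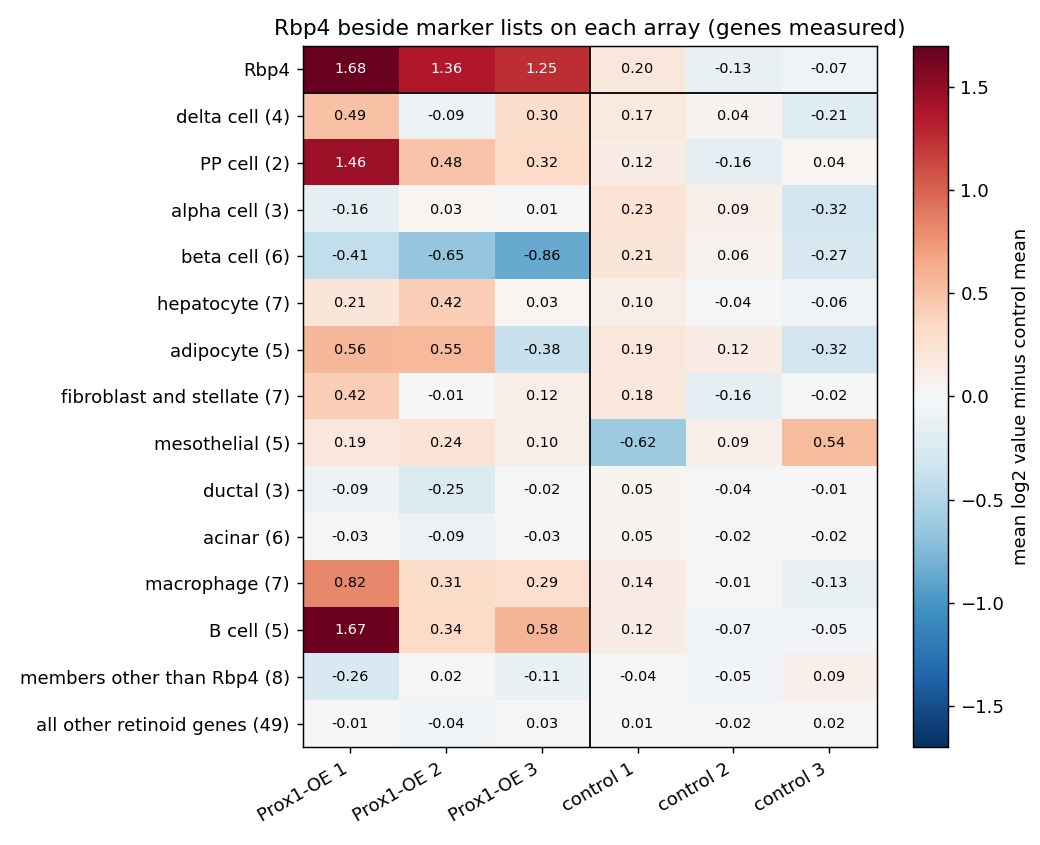
Rbp4 (top row) and the mean of each marker or retinoid list on each array, as log2 values minus the control mean, with the number of genes measured in parentheses. Rbp4 is at 1.68, 1.36 and 1.25 on the Prox1-OE arrays, where the delta cell list reads 0.49, -0.09 and 0.30 and the other 8 members read -0.26, 0.02 and -0.11 on average.

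The genes whose pattern was most like that of Rbp4 were taken as those with the smallest root mean square difference between the 6 values, each centred on the gene's own mean. In order they were Fam241b (0.20), Ap1s3 (0.33), a clathrin adaptor subunit, Cd48 (0.33), a surface protein of leukocytes, Hsp90aa1 (0.33), a cytosolic chaperone, and Lyz1 (0.35), a lysozyme. None of them is a retinoid gene of the lists. Fam241b read 7.60, 7.44 and 7.62 in Prox1-OE and 6.44, 6.40 and 6.21 in control. Cd48 read 5.62, 4.33 and 4.48 against 3.96, 3.55 and 3.44, and its difference was 1.16 ± 0.31 and 0.28 with the B cell covariate. Lyz1 differed by -0.18 by a probe set specific to 1 transcript, the opposite direction to its brightest probe set. Of the 8 other members, Rarb (0.74) and Aldh1a2 (0.74) came closest to Rbp4, at ranks 7545 and 7712 of all genes, and Ttr (0.88) was the farthest. This measure mostly follows the group difference by which Rbp4 was chosen. The order of the members therefore largely repeats their differences and shows no likeness of pattern.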

How the data were processed

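Total RNA of whole pancreas was labelled by an Affymetrix 3' protocol, per the labels' protocols. The authors deposited log2 probe set values. Per the submitters' processing notes these came from RMA and Partek 6.5. Their settings are not given in the sources used here. Quantile normalization in RMA hides a change of total RNA, and dim differences are compressed. Of 45101 probe sets, 64 controls were left out, 34945 had a single gene symbol in the platform annotation, and the one with the highest mean stood for each of 18193 genes. Percentiles of level only show where values are dim, since probe sets differ in brightness.

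The groups, 3 arrays each, entered a limma 3.58.1 fit (lmFit, eBayes; R 4.3.3) without covariates, two-sided and adjusted by Benjamini-Hochberg at 0.05 over all genes, or over all probe sets for probe sets named singly. Differences are Prox1-OE minus control in log2. Members and lists were chosen with earlier results of these data known. Beside members, the named genes were, for each role, the 2 with the smallest p, the 5 most like Rbp4, Prox1 and the first 2 measured of each marker list described singly. Rdh10, Lrat, Dhrs3, Stra6l, Rxrb, Aldh1a7, Ghsr, Lepr, Ahsg and Cela3b were described after their values were seen. Members or list genes without a named probe set were not analysed here. The fit was tested on simulated data. Alternatives were other probe set choices, a filter on dim genes, other scalings and eBayes settings, array weights, a replicate block, a B cell covariate and leaving out each array. The number of arrays limits the precision.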

Additional observations from a re-analysis of the deposited data

How the results depend on the processing

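The 0 calls among the other 8 members and among the 49 other retinoid genes stayed 0 under all 15 alternatives. At most 5 of all genes were called under any of them, so these counts could hardly differ. The filter on dim genes kept 4 of the 8 and 24 of the 49. Rbp4 kept its direction under all 15, at 1.31 to 1.53 without any single array and 1.16 with the B cell covariate. It passed the threshold under the 8 that kept all 6 arrays and had no B cell covariate, the replicate block included, and missed it under the other 7. The 5 genes called became 2 with the replicate block, 0 with the B cell covariate and 0 to 4 without any single array. The 4 probe sets called became 2, 0 and 0 to 6 in the same order. Fewer samples or residual degrees of freedom enter those fits, and the B cell covariate goes with the group. Same-numbered arrays of the groups deviated from their group means with correlations of 0.04, 0.14 and 0.11 across genes. Each array correlated best with its own number, a hint from the data, but the labels name no pairing. Of 116 values of the 8 members under alternatives, 6 changed sign, none of them past the threshold, and they ran from -0.40 to 0.56.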
